A study of Mus musculus with 8 samples.

Results

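The collagen and laminin genes are the chains of the main structural proteins of the extracellular matrix. They were taken as every gene on the array whose platform symbol is a collagen alpha chain (Col, a number, a, a number) or a laminin alpha, beta or gamma chain, with 1 row per symbol. This gave 54 of the 22180 genes measured, 44 collagens and 10 laminins. They were set in 3 classes: 11 fibrillar collagens, 16 basement membrane genes (6 type IV collagens and the laminins) and 27 other collagens.

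Collagen chains wind around each other in helices, and the chains that a cell makes decide what is built. Fibrillar collagens form the tensile fibrils of the dermis, which fibroblasts lay down. Type IV collagens form a network that, with laminins, makes the basement membrane under the epidermis and around hair follicles, where melanoblasts migrate and melanocyte stem cells reside. The other collagens decorate fibrils, form microfilaments, anchor the basement membrane or span the cell membrane. Cells bind these proteins through integrins and discoidin domain receptors.

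The arrays measured RNA from cells sorted out of dissociated mouse skin. P21_KO holds 4 arrays of melanocyte stem cells from mice of 21 days that were B-raf fl/fl and C-raf fl/fl and carried TyrCre/° and Z/EG. P21_WT holds 2 arrays of melanocyte stem cells from mice of 21 days, and P4_WT holds 2 arrays of melanoblasts from pups of 4 days, both from mice that were B-raf +/+ and C-raf +/+ and carried TyrCre/° and Z/EG. All 3 groups therefore carried Cre recombinase under the tyrosinase promoter and the Z/EG reporter, on a mixed background of C57Bl/6 and 129/Sv, and the sorted cells had green fluorescent protein and lacked surface p75. The skin was digested with collagenase IV and dispase before the sort. The labels call the arrays biological replicates, but the descriptions of 3 of the 4 P21_KO arrays hold a common number that no label explains, so it is not known whether they came from separate animals. A p-value here reflects only how far these arrays spread.

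Values are log2 levels made with RMA, which compresses differences near the floor, so a fold change of a gene that reads below its array's median (3.34 to 3.40 over all genes) is not well measured. Braf read 6.57, 6.49, 6.30 and 5.66 on the P21_KO arrays and 5.99 and 7.20 on the P21_WT arrays, a difference of -0.34 ± 0.36 (SE, limma adjusted p = 0.944). Where its probes lie with respect to the floxed exons is not known, so Braf does not check the deletion. All 9 melanocyte markers read above the array median on all 8 arrays. Their mean was 6.99 to 8.53 in P21_KO, 8.81 to 9.04 in P21_WT and 9.70 to 9.74 in P4_WT. P4_WT replicate 2 had more immune (5.79 against 3.07 to 3.62 on the other arrays) and endothelial signal (5.68 against 3.19 to 3.55). Hair shaft and inner root sheath markers averaged 6.54 in P4_WT replicate 1 and 4.59 in P4_WT replicate 2, against 2.68 to 2.84 on the P21 arrays. Pericyte markers averaged 4.17 to 4.89 in P21_KO, 4.84 to 4.89 in P21_WT and 4.57 to 5.60 in P4_WT, and adipocyte markers 3.63 to 3.95 in P21_KO, 3.68 to 3.81 in P21_WT and 3.84 to 4.42 in P4_WT.

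Of the 54 genes, 31 read above the array median on all 8 arrays and 12 below it on all 8. Those below it throughout included Col4a3, Col4a4, Col4a5 and Col4a6, the type IV chains of specialised basement membranes, the chains Col6a4, Col6a5 and Col6a6, and the embryonic laminin gene Lama1. The 7 fibrillar genes above the median throughout included Col1a1, Col1a2 and Col3a1, the chains of the main dermal fibrils. The heat map of the 54 genes shows where single genes departed from their own mean.

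**Figure D1:**
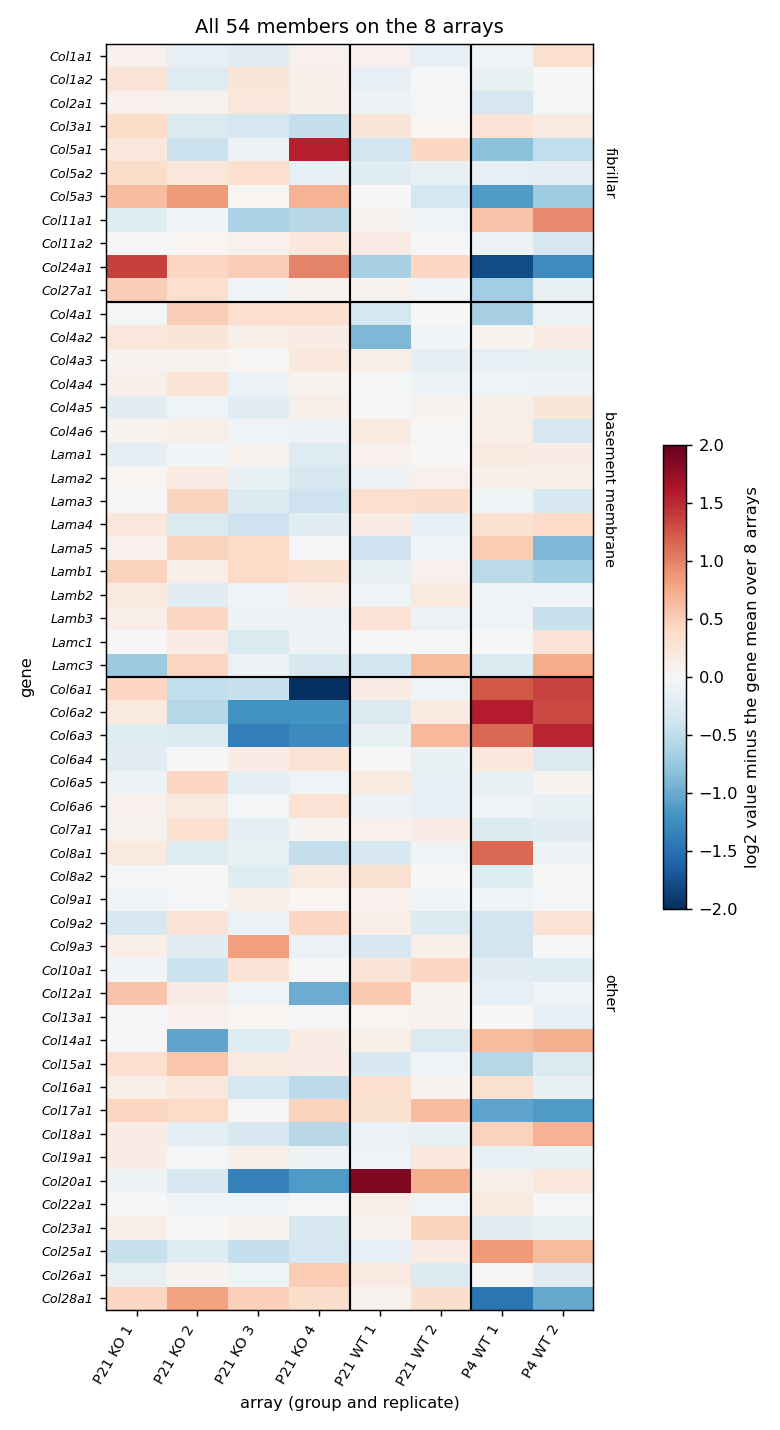
Log2 value of each of the 54 genes (rows, by class) on the 8 arrays (columns, P21_KO, P21_WT and P4_WT), after subtracting the gene's mean over the arrays, on a colour scale from -2 to 2. Col6a1, Col6a2 and Col6a3 are highest in P4_WT, while Col24a1, Col28a1 and Col17a1 are lowest there, and most laminin and type IV rows differ little.

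Promoter letters are shown for 5 genes on which the results turn. These genes are the type VI chains Col6a1, Col6a2 and Col6a3, and Col17a1 and Col28a1, which rose at 21 days. The group means of the type VI chains were lower at 21 days and lowest in P21_KO. No type VI chain was called by age or by genotype, and P21_KO and P21_WT arrays overlapped for Col6a1 and Col6a2. The letters are the 250 bases before the RefSeq start on build GRCm38.p6, which was matched for 40 of the 54 genes. Col6a1 (chr10:76726045-76726294, minus strand) and Col6a2 (chr10:76623631-76623880, minus strand, the most upstream of 2 listed starts) lie on the same chromosome, and Col6a3 (chr1:90843972-90844221, minus strand) on another. Col17a1 is at chr19:47692043-47692292, minus strand, and Col28a1 at chr6:8192618-8192867, minus strand. Capitals mark matches on either strand to letters known as the GC box (GGGCGG), the CCAAT box, the core promoter element TATAAA, the AP-1 site (TGANTCA) and the SOX site (ACAANG).
Col6a1: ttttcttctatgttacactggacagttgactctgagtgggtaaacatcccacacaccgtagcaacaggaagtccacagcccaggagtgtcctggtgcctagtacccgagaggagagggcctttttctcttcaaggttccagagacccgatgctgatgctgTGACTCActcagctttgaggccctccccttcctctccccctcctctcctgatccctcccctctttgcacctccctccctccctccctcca
Col6a2: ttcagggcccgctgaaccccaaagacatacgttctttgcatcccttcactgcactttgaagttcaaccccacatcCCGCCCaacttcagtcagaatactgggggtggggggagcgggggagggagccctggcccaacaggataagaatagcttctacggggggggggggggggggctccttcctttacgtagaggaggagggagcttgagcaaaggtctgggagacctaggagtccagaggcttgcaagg
Col6a3: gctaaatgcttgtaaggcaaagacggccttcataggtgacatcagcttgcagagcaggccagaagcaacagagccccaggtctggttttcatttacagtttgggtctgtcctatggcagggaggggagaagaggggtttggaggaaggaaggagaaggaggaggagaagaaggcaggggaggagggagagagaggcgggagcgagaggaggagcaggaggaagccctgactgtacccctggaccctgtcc
Col17a1: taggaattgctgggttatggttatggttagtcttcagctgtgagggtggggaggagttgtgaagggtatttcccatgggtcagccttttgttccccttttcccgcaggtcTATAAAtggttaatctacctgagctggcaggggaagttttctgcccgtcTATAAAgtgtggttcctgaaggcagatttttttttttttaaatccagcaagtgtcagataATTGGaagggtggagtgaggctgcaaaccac
Col28a1: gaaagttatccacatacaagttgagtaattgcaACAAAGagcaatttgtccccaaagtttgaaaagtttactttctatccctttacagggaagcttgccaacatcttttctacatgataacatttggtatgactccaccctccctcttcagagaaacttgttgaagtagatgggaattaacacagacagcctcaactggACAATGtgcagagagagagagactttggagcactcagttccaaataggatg

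The stretches shared no motif across the 3 type VI chains. Col6a1 held 1 AP-1 match and Col6a2 1 GC box, and Col6a3 held none of the letters searched. Col17a1 held 2 TATAAA matches and 1 CCAAT box, and Col28a1 2 SOX matches. Among 27025 promoters of the same length, 6.85% held the AP-1 motif, 33.0% a GC box, 34.5% a CCAAT box, 13.0% the letters TATAAA and 36.6% a SOX match. The E-box letters CACGTG and CATGTG, found in 6.04% and 12.2% of promoters, were in none of the 5. A match is a description of the letters only.

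The age comparison sets P21_WT against P4_WT and addresses the step between melanoblasts and melanocyte stem cells. Col17a1 and Col28a1 rose in P21_WT, by 2.92 and 2.73 times. They were the 2 genes of the 54 called by limma (adjusted p under 0.05 over all genes), 2 higher and 0 lower, where 1.61% of all genes were called, 0.757% higher and 0.852% lower. Of the 54 genes, 16 were higher and 13 lower without overlap between the arrays, against 21.4% and 22.1% of all genes. The median change was 0.07 over the 54 genes and 0.00 over all genes. Next to the called genes, the smallest p-values by age were those of Col24a1 (1.40), Lamb1 (0.58), Col5a3 (0.75) and Col10a1 (0.58) among higher genes and of Col6a2 (-1.49), Col25a1 (-0.74), Col11a1 (-0.75), Col18a1 (-0.72), Col6a3 (-1.09) and Col4a2 (-0.59) among lower ones, none past the threshold.

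Col17a1 encodes a collagen that spans the membrane and holds basal keratinocytes to the basement membrane at hemidesmosomes. In mice, its loss from hair follicle stem cells is known to deplete melanocyte stem cells. It read 5.96, 5.91, 5.56 and 5.98 in P21_KO, 5.84 and 6.15 in P21_WT, and 4.48 and 4.41 in P4_WT. All 6 arrays of 21 days were above both P4_WT arrays, and the P21_KO and P21_WT arrays overlapped. The change was 1.55 ± 0.20 (SE) in P21_WT against P4_WT (limma adjusted p = 0.0105) and 1.41 ± 0.18 (SE) in P21_KO against P4_WT (limma adjusted p = 0.00285). The age call was lost without P21_WT replicate 2, at a limma adjusted p of 0.0675.

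Keratinocyte markers also averaged higher in P21_WT than in P4_WT. Of 9 markers, 0 were called by age, where 1.61% of all genes were called. All estimates by age but that of Trp63 (-0.12) were higher, up to 1.52 for Krtdap (limma adjusted p = 0.0786). In P21_KO against P4_WT, 1 of the 9 was called higher, Krtdap (1.44, limma adjusted p = 0.0232), where 3.05% of all genes were called higher. The mean of the 9 markers was 8.12 and 7.98 in P21_WT and 7.56 and 6.42 in P4_WT. The part of keratinocyte RNA in the change was not tested. In bulk samples, fewer cells of a type and less RNA per cell cannot be told apart. Among other genes of the epidermal basement membrane zone, Itgb4, an integrin chain of hemidesmosomes, rose by age (1.11 ± 0.22 SE, limma adjusted p = 0.0493). The matrix chains Lama3, Lamb3 and Col7a1 did not pass. Lama3, a chain of the hemidesmosomal laminin, was at 0.55 ± 0.27 (SE, limma adjusted p = 0.474), its partner Lamb3 at 0.35, and Col7a1, which forms anchoring fibrils, at 0.38.

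Col28a1 encodes a collagen with von Willebrand factor domains that in mice lies around glial cells of peripheral nerves. It read 7.79, 8.17, 7.85 and 7.73 in P21_KO, 7.44 and 7.73 in P21_WT, and 5.91 and 6.35 in P4_WT. The P4_WT arrays lay below all the others by over 1 log2 unit. It rose by 1.45 ± 0.23 (SE) in P21_WT (limma adjusted p = 0.0217) and by 1.75 ± 0.20 (SE) in P21_KO (limma adjusted p = 0.00188), each against P4_WT. The age call was lost without P4_WT replicate 1 and without either P21_WT array, with a limma adjusted p of up to 0.121. Of 8 Schwann cell and glial markers, 5 (Egr2, Mal, Cnp, Pmp22 and Mbp) were called higher by age and none lower, where 0.757% of all genes were called higher. S100b (0.31) and Sox2 (0.24) did not pass. Gfra3 was at -1.71 ± 0.36 (SE, limma adjusted p = 0.0636) by age and fell by 1.55 in P21_KO against P4_WT (limma adjusted p = 0.0209). The mean of the 8 markers was 7.97 and 7.85 in P21_WT and 7.10 and 7.07 in P4_WT, and all 8 read above the array median on every array. The sort took cells without surface p75, a gate that would leave out p75-positive glia but not glia that lack surface p75. The part of glial RNA in the change was not tested.

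**Figure D2:**
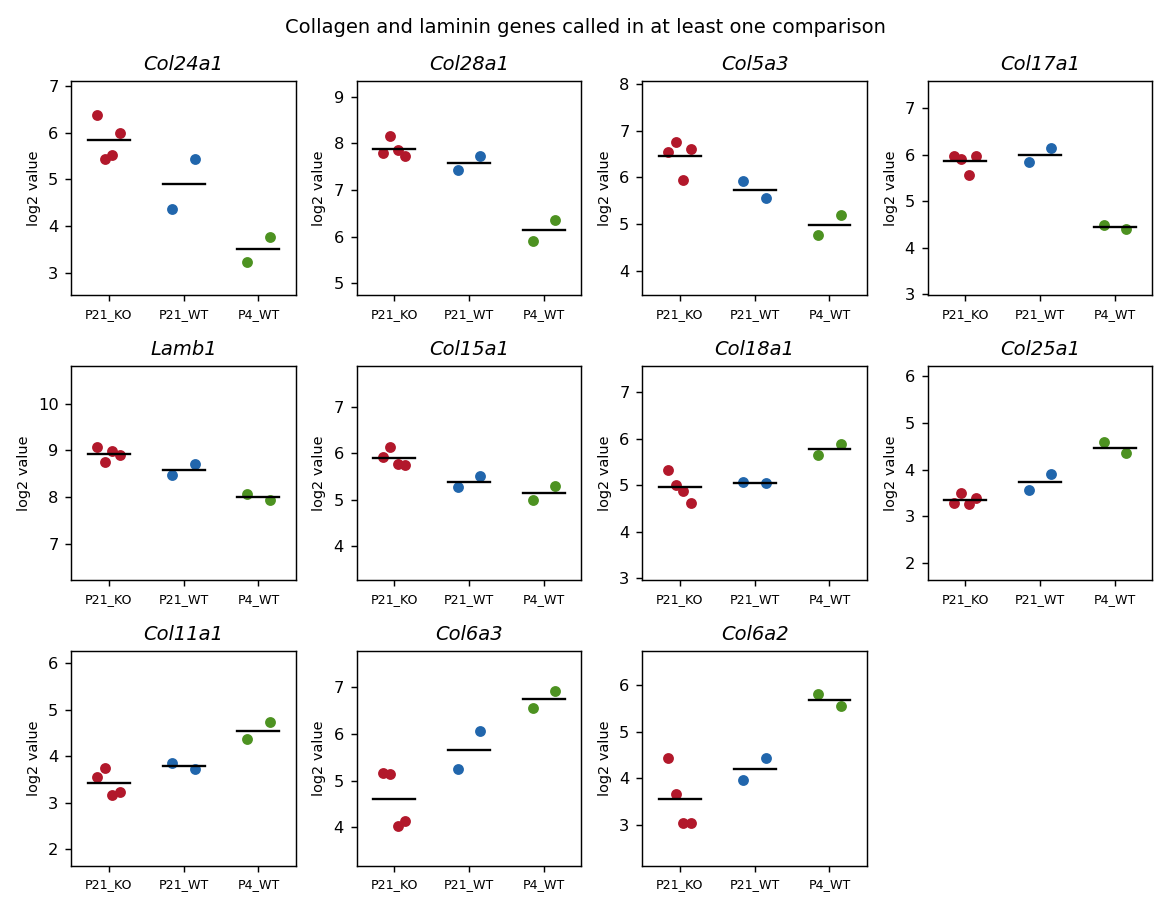
Log2 values of the 11 genes called in at least 1 comparison, by group (P21_KO, P21_WT, P4_WT), where each point is an array and each bar a group mean and all panels have axes of the same span. Col24a1, Col28a1, Col5a3, Col17a1, Lamb1 and Col15a1 are lowest in P4_WT and the other 5 genes are highest there, and Col17a1 is the 1 gene whose P21_WT mean does not lie between the other means.

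The remaining comparison places P21_KO against P4_WT, which differ in both age and genotype, and shares its arrays with the other comparisons. In it 11 of the 54 genes were called, 6 higher and 5 lower, where 7.73% of all genes were called, 3.05% higher and 4.68% lower. Col24a1, Col28a1, Col5a3, Col17a1, Lamb1 and Col15a1 rose, and Col6a2, Col6a3, Col11a1, Col25a1 and Col18a1 fell. Without overlap between arrays, 16 genes were higher and 10 lower, against 14.2% and 15.5% of all genes. By class, 3 of 11 fibrillar, 1 of 16 basement membrane and 7 of 27 other genes were called. Col15a1, Col17a1 and Col18a1, collagens of the basement membrane or its zone, are counted here as other. The count was 5 without P4_WT replicate 1 and 6 without P4_WT replicate 2.

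**Figure D3:**
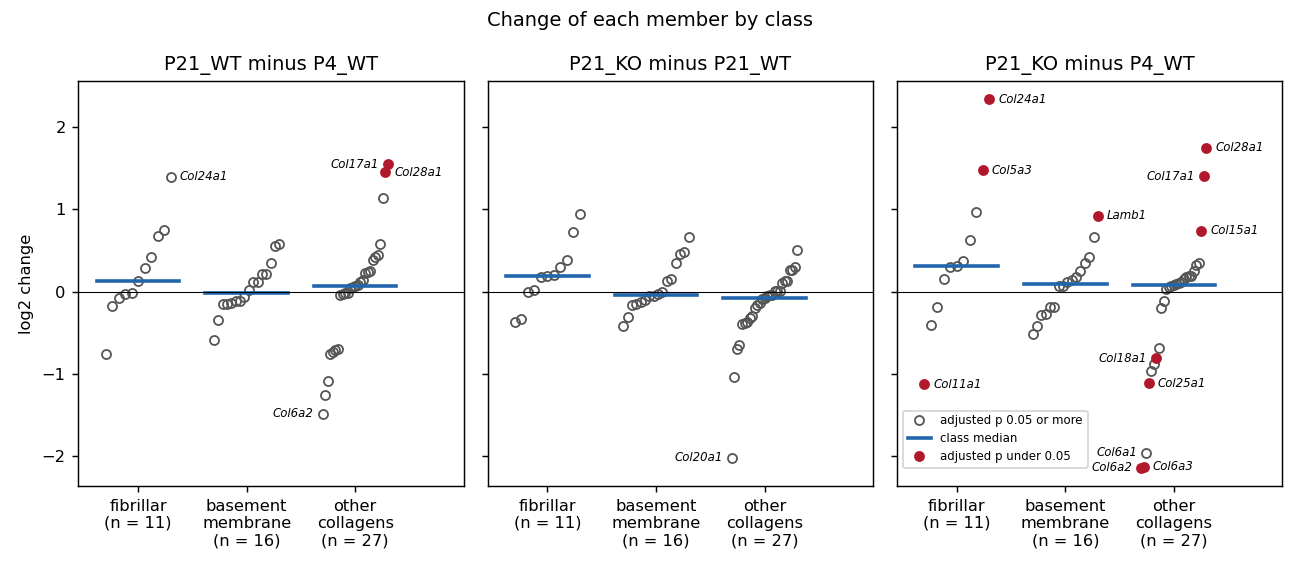
Log2 change of each of the 54 genes by class in the 3 comparisons (panels), with filled points at a limma adjusted p under 0.05 and a bar at the class median. Genes of the basement membrane class, which leaves out Col7a1, Col15a1, Col17a1 and Col18a1, lie within 0.93 of 0 in every panel. Most called genes are in the fibrillar or other class.

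The type VI chains Col6a2, Col6a3 and Col6a1 had the 3 lowest estimates of the 54 genes in P21_KO against P4_WT, and Col6a2 and Col6a3 fell. Type VI collagen forms beaded microfilaments beside basement membranes, and Col6a1, Col6a2 and Col6a3 assemble together. Col6a2 read 4.44, 3.67, 3.03 and 3.04 in P21_KO, 3.96 and 4.44 in P21_WT, and 5.82 and 5.56 in P4_WT. Col6a3 read 5.17, 5.13, 4.02 and 4.13 in P21_KO, 5.25 and 6.06 in P21_WT, and 6.56 and 6.93 in P4_WT. Col6a1 read 7.36, 6.45, 6.49 and 4.80 in P21_KO, 7.08 and 6.87 in P21_WT, and 8.17 and 8.30 in P4_WT. For each chain the P4_WT arrays lay above all 6 arrays of 21 days, and the P21_KO arrays spread over more than 1 log2 unit.

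In P21_KO against P4_WT, Col6a2 fell by 2.14 ± 0.39 on the log2 scale (SE, 4.41-fold, limma adjusted p = 0.0136) and Col6a3 by 2.13 ± 0.39 (SE, 4.38-fold, limma adjusted p = 0.0151). Col6a2 read below the array median in P21_KO replicates 3 and 4, so its fold is not well measured. Col6a1 was at -1.96 ± 0.57 (SE) and did not pass (limma adjusted p = 0.0836). A second row of Col6a1 was at -1.71, with a limma adjusted p of 0.0494 when every row was tested. In P21_WT against P4_WT, Col6a1 was at -1.26, Col6a2 at -1.49 and Col6a3 at -1.09, none past the threshold. Without either P4_WT array, Col6a2 and Col6a3 were not called in P21_KO, with a limma adjusted p of up to 0.102.

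Within P21_KO the mean of the 3 chains was 5.66, 5.08, 4.51 and 3.99 on replicates 1 to 4, against 5.43 and 5.79 in P21_WT and 6.85 and 6.93 in P4_WT. The mean of the 9 melanocyte markers was 8.53, 8.06, 7.54 and 6.99 in P21_KO, 9.04 and 8.81 in P21_WT, and 9.74 and 9.70 in P4_WT. The arrays had the same order in both means within P21_KO and the opposite order within P21_WT and within P4_WT. No single chain had this order within P21_KO. Col6a1 was higher in replicate 3 (6.49) than in replicate 2 (6.45). Col6a2 and Col6a3 were higher in replicate 4 (3.04 and 4.13) than in replicate 3 (3.03 and 4.02). Col6a1 within P21_WT and Col6a2 within P4_WT had the order of the melanocyte mean. Of the melanocyte markers, 5 were called lower and 1 higher in P21_KO against P4_WT, where 4.68% of all genes were called lower and 3.05% higher. Fibroblast markers other than collagens averaged 4.98, 4.64, 4.43 and 4.72 in P21_KO, 5.28 and 4.79 in P21_WT, and 5.07 and 5.70 in P4_WT. The group means of these markers, 4.69 in P21_KO, 5.03 in P21_WT and 5.39 in P4_WT, had the same order as those of the type VI chains. Of the 9 fibroblast markers, 3 (Fbln1, Fbln2 and Fn1) were called lower in P21_KO against P4_WT and none higher. Mfap5 went the other way, at 1.95, and did not pass (limma adjusted p = 0.0788). The part of melanocyte and fibroblast RNA in the type VI values was not tested.

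**Figure D4:**
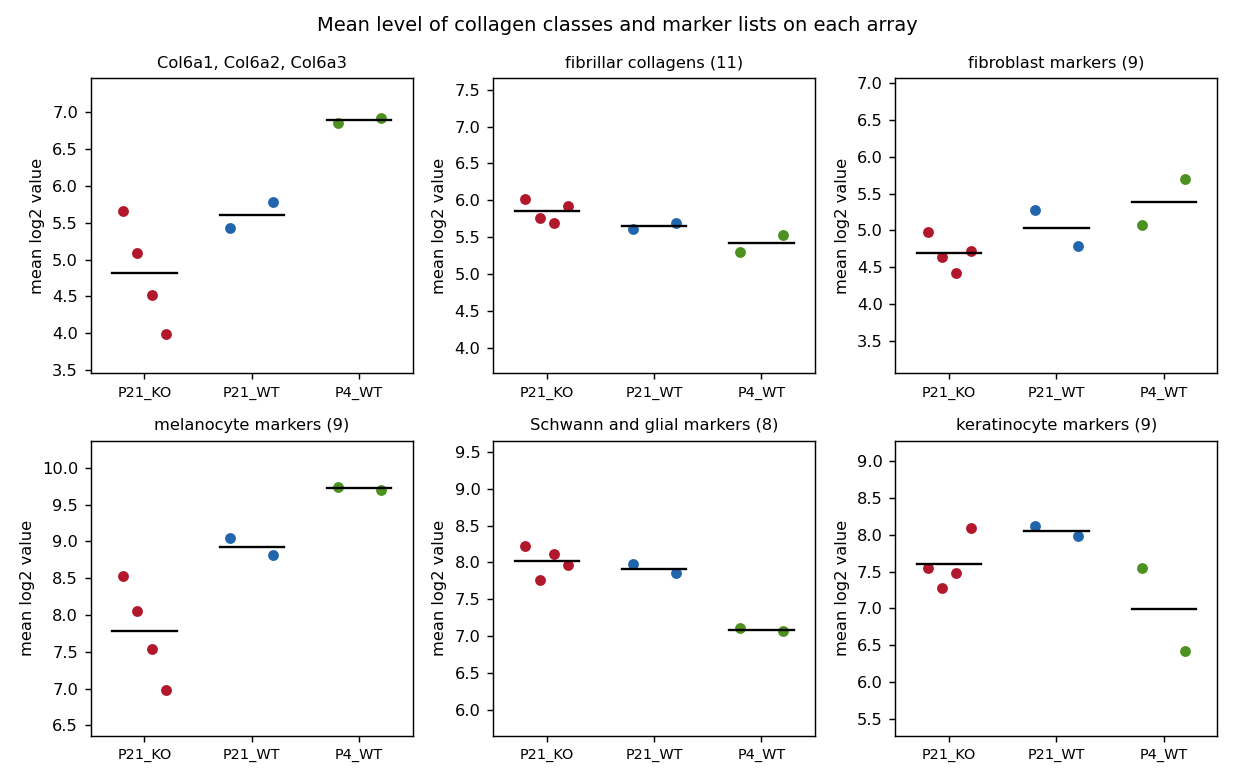
Mean log2 value of the 3 type VI chains, the fibrillar collagens and 4 marker lists on each array, by group, where bars are group means and all panels have axes of the same span. Type VI chains, fibroblast markers and melanocyte markers have the same order of group means. The means of type VI chains and melanocyte markers share the order of arrays within P21_KO and have opposite orders within P21_WT and P4_WT. No single type VI chain has this order within P21_KO. Fibrillar collagens lie between 5.29 and 6.02 on all arrays.

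Among fibrillar collagens, 2 rose and 1 fell in P21_KO against P4_WT. The major dermal chains were at -0.18 for Col1a1, -0.03 for Col1a2 and -0.08 for Col3a1 by age, and at -0.19, 0.16 and -0.41 in P21_KO against P4_WT. The standard errors of these changes were 0.18 to 0.27, and none passed the test. Col1a1 read 7.68, 7.42, 7.37 and 7.68 in P21_KO, 7.67 and 7.42 in P21_WT, and 7.54 and 7.91 in P4_WT, with full overlap of the groups. The minor chains Col24a1 and Col5a3 rose in P21_KO against P4_WT, and Col11a1, which nucleates fibrils in cartilage and elsewhere, fell.

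Col24a1, a minor fibrillar collagen known from developing bone and eye in mice, had the largest change of the 54 genes. It read 6.39, 5.45, 5.51 and 6.00 in P21_KO, 4.36 and 5.44 in P21_WT, and 3.23 and 3.76 in P4_WT. No groups overlapped, although P21_WT replicate 2 nearly reached the lowest P21_KO array. P4_WT replicate 1 lay below its array's median, so the fold is not well measured. The change in P21_KO against P4_WT was 2.34 ± 0.36 (SE, 5.06-fold, limma adjusted p = 0.00756). It was 1.40 ± 0.42 (SE) by age and 0.94 ± 0.36 (SE) by genotype, neither past the threshold. Without P4_WT replicate 1 it was not called (limma adjusted p = 0.0603).

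Col5a3 encodes a chain of type V collagen, which controls fibril diameter and in rats is made by Schwann cells. It read 6.54, 6.77, 5.95 and 6.61 in P21_KO, 5.91 and 5.56 in P21_WT, and 4.77 and 5.20 in P4_WT. The groups were again ordered without overlap, with P21_KO highest. The change was 1.48 ± 0.25 (SE, limma adjusted p = 0.0111) in P21_KO against P4_WT, and the call was lost without P4_WT replicate 1 (limma adjusted p = 0.0841). Col5a1, the chain common to most type V collagen, was named after its values were seen because its rows disagreed. The kept row was at 0.97 ± 0.50 (SE, limma adjusted p = 0.341), with a P21_KO replicate 4 value of 6.94 against 4.95 to 5.60 on the other P21_KO arrays. The other row was at 0.77 ± 0.18 (SE, limma adjusted p = 0.0406 when every row was tested). Col11a1 fell by 1.12 ± 0.20 in P21_KO against P4_WT (SE, limma adjusted p = 0.0142), its mean being 3.42 ± 0.27 in P21_KO (SD, n = 4), against 4.55 ± 0.26 in P4_WT (SD, n = 2). P21_KO replicates 3 and 4 read below the array median. Col11a1 was not called without P4_WT replicate 2 (limma adjusted p = 0.106).

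Changes of laminins and type IV collagens ran from -0.51 to 0.93 in P21_KO against P4_WT, those of fibrillar collagens from -1.12 to 2.34 and those of other collagens from -2.14 to 1.75, and the difference between classes was not tested. The basement membrane median was -0.02 by age, -0.04 by genotype and 0.09 in P21_KO against P4_WT, where the medians over all genes were 0.00, 0.01 and 0.02. Lamb1, a beta chain of widespread laminins, was the 1 gene called. It read 9.08, 8.74, 8.99 and 8.91 in P21_KO, 8.47 and 8.70 in P21_WT, and 8.07 and 7.94 in P4_WT. The groups were ordered without overlap, and the change in P21_KO against P4_WT was 0.93 ± 0.15 (SE, 1.90-fold, limma adjusted p = 0.00996). It was not called without P4_WT replicate 2 (limma adjusted p = 0.0704).

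The chains that assemble with Lamb1 did not pass. Lamc1, the gamma chain of the same laminins, was at -0.18 ± 0.17 (SE) in P21_KO against P4_WT, and Lama4, an alpha chain of vessels and nerves, at -0.51 ± 0.20 (SE). Lama5, an alpha chain of adult skin, read 4.85, 5.22, 5.16 and 4.72 in P21_KO, 4.34 and 4.68 in P21_WT, and 5.27 and 3.87 in P4_WT. Its P4_WT arrays lay on either side of all others, so its changes have no stable direction. Col4a1 and Col4a2, which assemble together and whose promoter windows of 300 bases share 78 bases, had unequal estimates, and neither passed. In P21_KO against P4_WT, Col4a1 was at 0.67 ± 0.22 (SE) and Col4a2 at 0.07 ± 0.22 (SE). Col4a2 read 4.34 in P21_WT replicate 1, below the 5.18 to 5.48 of the other 7 arrays, so its changes by age (-0.59) and by genotype (0.66) rest on that array.

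Among the other collagens, Col25a1 and Col18a1 fell and Col15a1 rose in P21_KO against P4_WT. Col25a1 encodes a membrane-spanning collagen of neurons, needed in mice for the innervation of muscle. It read 3.29, 3.49, 3.26 and 3.39 in P21_KO, 3.56 and 3.90 in P21_WT, and 4.58 and 4.36 in P4_WT. The groups were ordered without overlap, with P21_KO lowest, and the fall was 1.12 ± 0.16 (SE, limma adjusted p = 0.00535). Since 3 P21_KO arrays lay below the array median, its fold is not well measured. Col25a1 and Col6a3 were the 2 genes of the 54 ordered in this way across the 3 groups, and Col24a1, Col5a3 and Lamb1 the 3 ordered the other way. Of all genes, 2.12% were ordered with P21_KO lowest and 1.7% with P21_KO highest.

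Col15a1 and Col18a1 encode related collagens of basement membrane zones, and Col18a1 is the source of endostatin. Col15a1 averaged 5.89 ± 0.18 in P21_KO (SD, n = 4), against 5.15 ± 0.20 in P4_WT (SD, n = 2), a rise of 0.74 ± 0.17 (SE, limma adjusted p = 0.0385). Col18a1 averaged 4.96 ± 0.29 in P21_KO (SD, n = 4), against 5.77 ± 0.16 in P4_WT (SD, n = 2), a fall of 0.81 ± 0.20 (SE, limma adjusted p = 0.0485). Both calls were close to the threshold and each held in 1 of the 8 fits that left out an array, with a limma adjusted p of up to 0.227 for Col15a1 and 0.247 for Col18a1. Col14a1, which decorates fibrils, was at -0.96 ± 0.32 (SE) and did not pass (limma adjusted p = 0.123).

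The genotype comparison sets P21_KO against P21_WT and asks which genes differ with the loss of B-raf and C-raf. Limma called 0 of the 54 genes and 0% of all genes. At an unadjusted p under 0.05 there were 7 of the 54, 4 higher and 3 lower, where 6.52% of all genes were past it, 2.84% higher and 3.69% lower. Without overlap between arrays 8 genes were higher and 3 lower, against 7.75% and 7.64% of all genes. The class medians were 0.19 for fibrillar, -0.04 for basement membrane and -0.07 for other collagens.

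Col20a1, a collagen that decorates fibrils, had the largest estimate. It read 4.87, 4.66, 3.63 and 3.85 in P21_KO, 6.85 and 5.70 in P21_WT, and 5.08 and 5.19 in P4_WT. The P21_KO arrays lay below and the P21_WT arrays above both P4_WT arrays. Its difference of -2.02 ± 0.42 (SE, 4.06-fold) did not pass over all genes (limma adjusted p = 0.468). The next smallest p-values among lower genes were those of Col6a3 (-1.04) and Col25a1 (-0.38), and among higher genes those of Col4a2 (0.66), Col15a1 (0.50), Col5a3 (0.73) and Col24a1 (0.94), with limma adjusted p between 0.650 and 0.762. Values for Col5a2 (0.38), Lamb1 (0.34), Lama3 (-0.42), Col10a1 (-0.39) and Col11a1 (-0.37) were further from the threshold.

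Genes that process collagen, bind basement membranes or break down matrix were read from lists of partners. Of 27 measured genes of collagen processing, 0 were called by age and 4 in P21_KO against P4_WT, where 1.61% of all genes were called by age and 7.73% in P21_KO against P4_WT. Lox, which crosslinks collagen, rose by 2.34 ± 0.38 (SE, limma adjusted p = 0.00855), its mean being 5.84 ± 0.62 in P21_KO (SD, n = 4), against 3.51 ± 0.50 in P4_WT (SD, n = 2). Tll1, of the family that trims procollagen, rose by 1.06. Lox read 3.15 in P4_WT replicate 1 and Tll1 read 2.97 and 2.85 in P4_WT. These values lie below the array median, so the folds are not well measured. Plod2, which hydroxylates lysines before crosslinking, fell by 2.18, and Ppib, a prolyl isomerase of collagen folding, fell by 1.00.

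Of 13 basement membrane partners, 6 were called in P21_KO against P4_WT, 1 higher and 5 lower, with a median of -0.69. Of all genes, 7.73% were called, 3.05% higher and 4.68% lower, with a median of 0.02. Hspg2, the gene of perlecan, rose by 0.97 ± 0.15 (SE, limma adjusted p = 0.00629). Npnt, an integrin ligand, fell by 1.84 ± 0.22 (SE, limma adjusted p = 0.00227). Egfl6 (-2.12), Tinagl1 (-1.82), Frem2 (-1.82) and Agrn (-0.69), all secreted or surface proteins of basement membranes, fell too. Npnt (3.00 and 3.11) and Tinagl1 (2.81 and 3.21) read below the array median in P21_KO replicates 2 and 4. Egfl6 did so in P21_KO replicates 1, 3 and 4 (2.90, 3.19 and 3.335) and in P21_WT (3.06 and 3.21). The folds of Npnt, Tinagl1 and Egfl6 are therefore not well measured. By age, Egfl6 was the 1 of 13 called, at -2.22 ± 0.36 (SE, limma adjusted p = 0.0266), where 1.61% of all genes were called. In P21_KO against P21_WT, 0 of the 13 were called by limma and 5 had an unadjusted p under 0.05, all lower, where 3.69% of all genes were lower past it. The 6 genes called in P21_KO against P4_WT differed in their estimates by age and by genotype. Tinagl1 was at -0.15 by age and -1.67 by genotype, Npnt at -1.12 and -0.72, and Frem2 at -1.20 and -0.62. Agrn was at -0.39 and -0.30, Hspg2 at 0.72 and 0.25, and Egfl6 at -2.22 and 0.09.

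In P21_KO against P4_WT, 4 of 12 receptor genes and 3 of 11 breakdown genes were called, in both directions, where 7.73% of all genes were called. Of 12 receptor genes, Itgb4 (1.60) and Itga7 (1.81), subunits of laminin receptors, and Ddr1 (1.02), a collagen receptor, rose in P21_KO against P4_WT, and Itga1 (-1.07), a subunit of a collagen receptor, fell. By age, 1 of the 12 receptor genes was called, Itgb4, and 0 of the 11 breakdown genes, where 1.61% of all genes were called. Of 11 breakdown genes, Mmp2 (-1.68) and Mmp14 (-1.70), which degrade matrix, fell in P21_KO against P4_WT, and Timp3 (1.25), an inhibitor of such enzymes, rose. In P21_KO against P21_WT, 0 genes of the 4 lists were called by limma, and at an unadjusted p under 0.05 there were 3 of 27 in collagen processing, 4 of 12 among receptors and 2 of 11 among breakdown genes, where 6.52% of all genes were past it.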

How the data were processed

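Per the submitters' processing notes, the authors ran RMA in Affymetrix Expression Console, and the deposited values are log2 levels. No version of either is given in the sources used here. The value table had 41345 rows; 23521 carried a single symbol in the platform annotation and 1814 carried several. Keeping, for each symbol, the row with the highest mean left 22180 genes. Gene IDs of 23328 rows were found in the RefSeq table (GRCm38.p6), with no symbol changed.

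All 8 arrays entered a single limma model with a mean per group (limma 3.58.1, R 4.3.3, lmFit and eBayes), which left 5 residual degrees of freedom. P-values are two-sided, Benjamini-Hochberg adjusted across the 22180 genes, and called under 0.05. Precision is limited by the number of arrays. The fit was also run on simulated data drawn as independent arrays. Such data cannot check whether the P21_KO arrays came from separate animals. Named were all called genes, those with the 6 smallest p per direction and comparison, and 10 chains always taken. From partner lists, called genes were named. The genes, classes and lists were chosen with earlier results of these data known. Lists are described by counts and medians, with no test. Alternatives changed the arrays, prior, weights, normalization, filter, rows, blocks, threshold and classes.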

Additional observations from a re-analysis of the deposited data

Results flagged for a closer look

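Col17a1 was singled out because P21_KO replicate 3, at 5.56, lay apart from the other 3 P21_KO arrays, at 5.91 to 5.98. Its gap to the nearest array was 0.846 of the group's range, above the critical value of Dixon's test for 4 samples. Of 27 levels tested in this way 1 passed, and chance gives about 1 in 20.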

How the results depend on the processing

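Of the values for named genes, 324 of 344 by age, 353 of 362 by genotype and 300 of 344 in P21_KO against P4_WT kept their direction and side of the threshold. The replicate numbers do not pair the arrays, whose same-numbered deviations correlated at -0.04 to 0.01 across genes. With the replicate block, which leaves 2 residual degrees of freedom, 0 collagen and laminin genes were called by age and 3 in P21_KO against P4_WT, and the basement membrane median by genotype was 0.11. Fitted on the arrays of the 2 groups alone, the age comparison called 0. Without single arrays it called 0 to 2, and P21_KO against P4_WT called 5 to 11. In P21_KO against P4_WT, Col17a1 and Col28a1 were called in all 18 alternatives that tested each gene, Col25a1 and Col5a3 in 17, Col24a1, Lamb1 and Col11a1 in 16, Col6a2 and Col6a3 in 15, Col15a1 in 8 and Col18a1 in 4. With Col7a1, Col15a1, Col17a1 and Col18a1 counted as basement membrane, that median by age was 0.069.

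Several values near 0, and those of Lama5, changed sign. With cyclic loess, Col1a2 (0.049), Col3a1 (0.027) and Lama5 (0.0091) by age and Col1a1 (0.0091) by genotype turned positive. With quantile normalization, Col3a1 (0.049) and Lama5 (0.035) by age did so, with median centring Col1a1 by genotype (0.012), and with the replicate block Col1a1 (0.0034) and Lamc1 (0.11) by genotype. Without single arrays, the changes by age ran from -0.37 to 0.0084 for Col1a1, from -0.11 to 0.043 for Col1a2, from -0.18 to 0.022 for Col3a1, from -0.062 to 0.50 for Col4a1 and from -0.76 to 0.64 for Lama5. By genotype they ran from -0.14 to 0.12 for Col1a1, from -0.30 to 0.016 for Col17a1 and from -0.11 to 0.045 for Lamc1, and in P21_KO against P4_WT from -0.29 to 1.11 for Lama5. The causes were not tested.

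Over all genes, age called 357, against 49 on the 2 groups alone, 45 with the replicate block, 674 at an adjusted p under 0.1, and 121, 119 and 233 without P21_WT replicate 1, P21_WT replicate 2 and P21_KO replicate 3. P21_KO against P4_WT called 1715, against 463 with the replicate block and 990 and 921 without P4_WT replicates 1 and 2. Genotype called 0, against 2, 15 and 1 without P21_WT replicate 1, P21_WT replicate 2 and P21_KO replicate 1. Signal near the floor limits the folds of Col6a2, Col11a1, Col24a1 and Col25a1, and of the partner genes Lox, Tll1, Npnt, Tinagl1 and Egfl6. The second rows of Col1a2, Col5a1 and Col6a1 were added as an alternative after the data were seen.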
